A study of Mus musculus with 48 samples.

Results

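The genes described here carry the symbols of mitochondrial ribosomal proteins. They were chosen by symbol from the counts table: Mrpl or Mrps followed by a number, with or without a letter, and a mean of 1 or more CPM (counts scaled to the library total) over 48 libraries. Of 77 symbols of that form 1 was left out by the rule, Mrpl33, which lies near Htt on the same chromosome. None was lost to the CPM limit, so 76 of the 48795 genes in the table were described, 47 with an Mrpl symbol for the large subunit and 29 with an Mrps symbol for the small subunit. All 76 passed the filter on low counts and were tested.

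The mitochondrial ribosome is assembled in the matrix from ribosomal RNAs transcribed from mitochondrial DNA and from proteins that are all encoded in the nucleus, made in the cytosol and imported. Its products are the core subunits of the respiratory chain and of ATP synthase that mitochondrial DNA still encodes, on which neurons depend heavily for ATP. Many of its proteins descend from those of the bacterial ribosome, others were added in mitochondria, and variants in several of the human genes cause combined respiratory chain deficiencies.

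RNA came from the cerebral cortex of C57BL/6 mice aged 12 months, with 8 mice (4 females and 4 males) in each of 6 genotypes. The genotypes were Q140 Msh3-/-, Q140 Msh3+/-, Q140, Msh3-/-, Msh3+/- and wild type (WT). Q140 mice are labelled as heterozygous for the knock-in, an Htt allele with an expanded CAG repeat that models Huntington disease, and Msh3 encodes a mismatch repair protein known to drive somatic expansion of such repeats. The comparisons ask how the knock-in and Msh3 dosage, alone and combined, alter cortical RNA.

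The libraries held 37.7 to 68.3 M counts in genes (median 48.6 M), and mitochondrially encoded genes took 3.54% to 6.13% of them. Each member had between 40 and 3915 counts in a library. Counts over the whole Msh3 gene were higher, not lower, with each altered allele: they averaged 99.2 ± 8.15 CPM in Msh3-/-, 60.1 ± 3.06 CPM in Msh3+/- and 22.4 ± 1.16 CPM in WT (SD, n = 8 each), and the ranges of these 3 genotypes did not overlap. The labels do not say which part of Msh3 was altered, so this count separates the genotypes but does not check the loss of the protein. Markers of cortical glutamatergic neurons summed to between 1951 and 2258 CPM in every library, with 8 of 8 detected. The 8 choroid plexus markers tested summed to 1128 CPM in Msh3+/- M2 against a median of 231 CPM, and pituitary markers stood apart in Msh3+/- M3, WT M2 and WT M3, reaching 45.2 CPM against a median of 0.745 CPM. The labels give cortex at 12 months, while the extraction protocol's text speaks of striatum at a younger age; markers of striatal projection neurons summed to 141 to 185 CPM.

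Promoter sequence was at hand for 67 of the 76 genes, from RefSeq on build GRCm38.p6, as windows of 300 bases that reach 250 bases before the annotated start and 50 bases into the transcript. Promoters of nuclear genes for mitochondrial proteins are known for binding sites of NRF1, of the ETS factor GABP and of YY1. The letters searched on both strands were GCGCATGC for NRF1, CCGGAAG for ETS factors and AAGATGGC for YY1, and no core contains another. At least 1 of the 3 was present in 35 of 67 members (52.2%), against 13.8% of all 27025 promoters in the table and 24.4% of the 10639 whose gene had a mean of 1 CPM or more. The ETS core was in 23 members (34.3%, against 9.12% of all promoters and 16.9% of those of expressed genes), the YY1 core in 12 (17.9%, against 2.88% and 4.46%) and the NRF1 core in 7 (10.4%, against 2.80% and 5.30%). TATAAA was in 4 members (5.97%), against 14.2% of all promoters and 6.84% of those of expressed genes, and the E-box CACGTG in 5 (7.46%), against 7.24% and 10.1%. Median GC content was 58.3% in the members and 52.7% in all promoters. These matches are descriptions of letters in a window, not of binding.

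The 6 stretches printed below show the arrangements found. They run from position -120 to +30, 150 bases each, 5′ to 3′ along the gene, with the first transcribed base at +1 and capitals marking the 3 cores in either orientation. Mrps27 at chr13:99344666-99344815 (plus strand) and Mrps18a at chr17:46110884-46111033 (plus strand) pair an ETS core before the start, at -48 and at -26, with a YY1 core just after it, at 15 and at 12. Mrpl22 at chr11:58171544-58171693 (plus strand) holds an ETS core at -53 and an NRF1 core at -33. Mrpl9 at chr3:94443216-94443365 (plus strand) has the NRF1 core in both orientations, overlapping, at -28 and -26. Mrpl32 at chr13:14613008-14613157 (minus strand) has 4 NRF1 matches, at -87, -85, -66 and -22. Mrpl36 at chr13:73330889-73331038 (plus strand) has a YY1 core before its RefSeq start, at -30, read on the opposite strand. The stretches of Mrpl36 and Mrpl32 lie inside the gene models used below, which run over 73328513-73332178 and 14608184-14613165. Their matches are therefore placed by the RefSeq start only.
Mrps27: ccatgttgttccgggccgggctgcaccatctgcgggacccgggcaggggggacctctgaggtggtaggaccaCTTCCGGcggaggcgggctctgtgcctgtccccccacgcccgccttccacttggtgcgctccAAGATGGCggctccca
Mrps18a: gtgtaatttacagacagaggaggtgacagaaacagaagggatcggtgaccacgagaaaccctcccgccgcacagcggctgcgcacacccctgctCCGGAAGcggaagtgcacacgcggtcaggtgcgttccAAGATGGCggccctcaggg
Mrpl22: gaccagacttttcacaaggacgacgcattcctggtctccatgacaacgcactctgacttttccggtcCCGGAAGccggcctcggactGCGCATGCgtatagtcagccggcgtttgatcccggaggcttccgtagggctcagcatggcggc
Mrpl9: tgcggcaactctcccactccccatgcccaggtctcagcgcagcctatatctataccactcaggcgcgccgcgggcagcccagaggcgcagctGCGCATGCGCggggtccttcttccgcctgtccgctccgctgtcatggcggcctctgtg
Mrpl32: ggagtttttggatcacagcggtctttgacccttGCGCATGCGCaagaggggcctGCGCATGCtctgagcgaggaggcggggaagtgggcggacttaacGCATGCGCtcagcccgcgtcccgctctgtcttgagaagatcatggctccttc
Mrpl36: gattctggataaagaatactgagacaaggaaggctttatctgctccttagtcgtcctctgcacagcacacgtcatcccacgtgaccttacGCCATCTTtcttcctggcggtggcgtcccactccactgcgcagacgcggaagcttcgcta
Of the genes on which the comparisons below turn, Mrpl34 has an ETS core at -37, Mrps22 at -11 and Mrps26 at -14, while none of the 3 cores is in the windows of Mrpl50, Mrpl23, Mrpl44 or Mrps2.

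Gene models were taken from GENCODE M21 on GRCm38. Their starts differ from the RefSeq starts above for Mrpl36 and Mrpl32, and the starts in this paragraph are those of GENCODE. The members lie on 17 chromosomes, with 10 on chromosome 11 and 8 on chromosome 17. A protein-coding gene started within 1 kb in the opposite direction in 33 of 76 members (43.4%), against 2009 of 13291 protein-coding genes with a mean of 1 CPM or more (15.1%). Several partners serve the mitochondrion too: Mrps12 starts head to head with Sars2 (the mitochondrial seryl-tRNA synthetase), Mrpl43 with Twnk (the mitochondrial DNA helicase Twinkle), Mrpl36 with Ndufs6 and Mrpl47 with Ndufb5 (subunits of respiratory complex I). Mrps11 and Mrpl46 on chromosome 7 are each other's partner, 1 for each subunit.

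**Figure D1:**
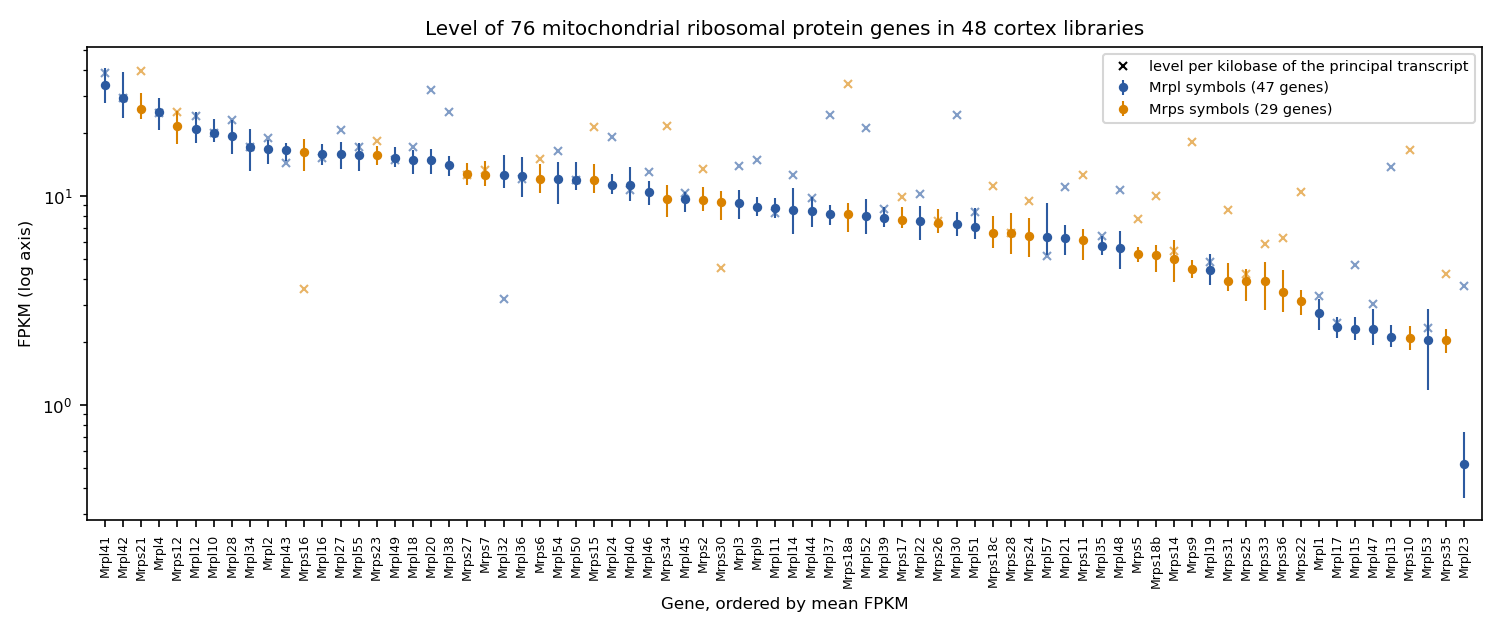
Level of each of the 76 genes. Circles are the mean FPKM over 48 libraries on a log axis, bars run from the lowest to the highest library, and crosses give the level per kilobase of the principal coding transcript instead, with Mrpl41 highest at 33.9 FPKM and Mrpl23 lowest at 0.523 FPKM.

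Levels between genes were compared as FPKM, the deposited values per kilobase and scaled to library size. The median over the 76 genes was 8.65 FPKM, with 31 above 10 FPKM and 17 under 5 FPKM, and the plot of levels by gene shows 1 even slope with Mrpl23 alone at its foot. Large-subunit genes had a median of 9.64 FPKM and small-subunit genes 6.62 FPKM, and both spanned most of the range. Here and in later medians and correlations by subunit, the subunit was read from the symbol. Mrps30 and Mrps36, whose proteins are placed elsewhere (below), were thus counted with the small subunit. The 45 genes whose proteins have bacterial counterparts had a median of 8.82 FPKM, and the 31 without had 8.19 FPKM.

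The highest was Mrpl41, a large-subunit protein without a bacterial counterpart, at 33.9 ± 2.63 FPKM (SD, n = 48 here and in the levels that follow). Mrpl42 followed at 29.3 ± 3.25 FPKM and Mrps21, a small-subunit protein, at 26.0 ± 1.73 FPKM. Mrpl4 stood at 25.1 ± 1.76 FPKM and Mrps12, which belongs to the decoding region of the small subunit, at 21.5 ± 1.81 FPKM. Neighbouring means in this order, such as Mrps21 and Mrpl4, differed by less than the spread between libraries. At the low end Mrpl13 averaged 2.11 ± 0.128 FPKM, Mrps10 2.08 ± 0.129 FPKM, Mrpl53 2.05 ± 0.400 FPKM and Mrps35 2.05 ± 0.129 FPKM, all with overlapping ranges. Mrpl23 averaged 0.523 ± 0.0836 FPKM, and its highest library, at 0.739 FPKM, lay below the lowest library of every other member.

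Part of this order follows from the length used. The length behind the deposited FPKM equalled the union of all annotated exons in 60 of the 76 genes, and in 15 the principal coding transcript was less than 50% as long. With the principal transcript as length, 11 genes moved by more than 20 ranks: Mrps18a came to rank 3 in place of 42 (34.2 CPM per kilobase against 8.18 FPKM), Mrps10 to rank 25 in place of 73 (16.5 against 2.08) and Mrps16 to rank 71 in place of 12 (3.58 against 16.3). Mrpl41, Mrpl42 and Mrps21 were among the 5 highest with either length. The ratio of the highest to the lowest member was 64.8 with the deposited lengths and 16.9 with principal transcripts.

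Several members share sequence or place with other genes, which bears on their counts. Mrpl23 has a processed pseudogene, Mrpl23-ps1, identical to it over 507 bases, and the pseudogene was listed at 8.71 CPM where Mrpl23 itself was at 2.55 CPM. Mrpl27 and Mrpl42 have copies at other places (Gm6304, 98.9% identical, 4.76 CPM, and Gm6419, 96.3% identical, 4.38 CPM). In all, 7 members had 11 copies elsewhere of at least 90% identity over at least 50% of the transcript, and 3 of the copies had 1 CPM or more. Mrpl53, the lowest member by CPM at 1.62, lies wholly within the annotated Gm42688 on the same strand over 695 bases, and the exons of 7 members overlap another gene on their own strand and those of 27 a gene on the other. How reads with several places, or in 2 genes, were counted is not stated in the sources used here, so the levels of Mrpl23, Mrpl27, Mrpl42, Mrpl53, Mrps25 (exons shared with Nr2c2 on the other strand) and Mrps34 (with Mapk8ip3 and Nme3) are uncertain.

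Across libraries the members varied little. The median SD of log2 CPM within genotype and sex was 0.09, and 0.13 in 10037 other genes of the same level range. Those genes share only the limits of 1.62 and 55.2 CPM with the members. Levels between the limits were not matched, and their part in the difference was not tested. The steadiest were Mrpl37 and Mrps5, each with an SD of 0.06, and the most variable were the 2 lowest by CPM, Mrpl53 (0.28) and Mrpl23 (0.21). Summed over the 76 genes, the level stayed between 1470 and 1586 CPM in all 48 libraries (mean 1520 CPM). Here and below CPM is on the normalized scale.

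By genotype the summed level averaged 1526 ± 24.2 CPM in Q140 Msh3-/-, 1520 ± 19.6 CPM in Q140 Msh3+/-, 1524 ± 29.6 CPM in Q140, 1521 ± 38.2 CPM in Msh3-/-, 1517 ± 25.8 CPM in Msh3+/- and 1515 ± 18.6 CPM in WT (SD, n = 8 each). These means differed by less than the spread within any genotype. The mean deviation of the members from their own averages ranged over libraries from -0.05 in Msh3-/- M1 to 0.08 in Msh3-/- F3 (log2), so the extremes on both sides belonged to 1 genotype. In Msh3-/- F3, 55 of 76 genes lay above their own mean, and in Msh3-/- M1 20 of 76 did. In bulk tissue, fewer cells of a type and less RNA per cell cannot be told apart.

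**Figure D2:**
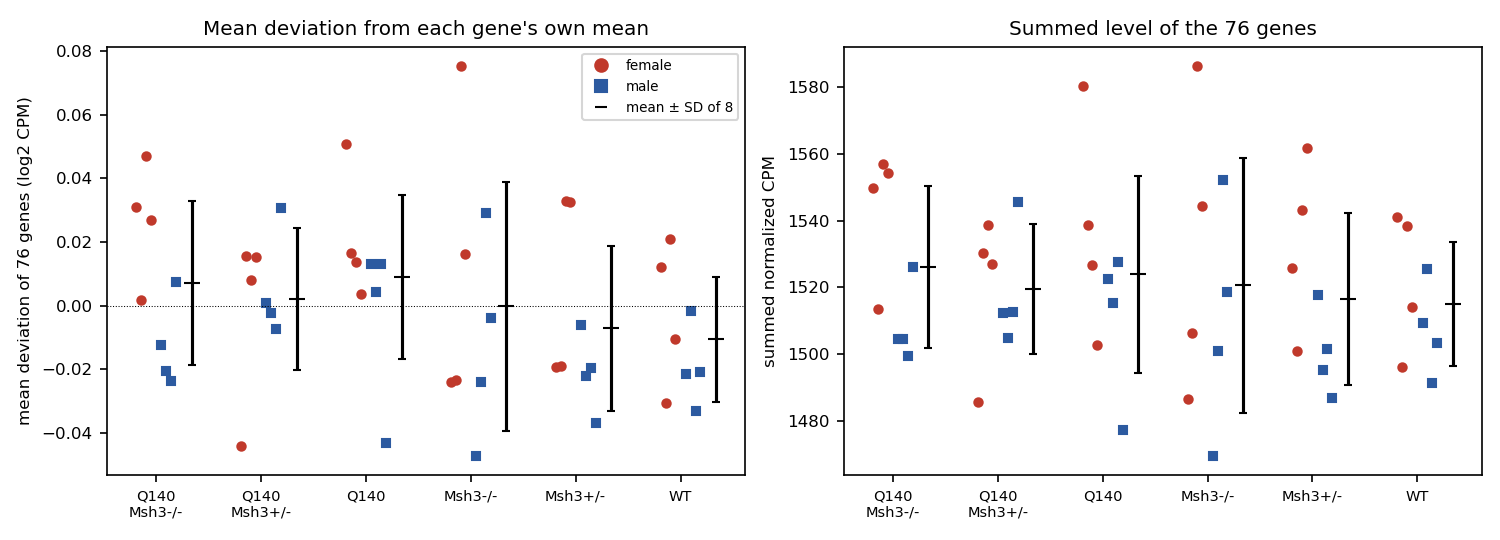
Members by library. Left, the mean deviation of the 76 genes from their own averages (log2 CPM); right, their summed normalized CPM, on an axis that does not start at 0; circles are females, squares males, and bars the mean ± SD of 8 libraries, with all libraries between 1470 and 1586 CPM and all genotypes overlapping.

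With genotype and sex means removed, pairs of members were weakly related over the 48 libraries. The median r over 2850 pairs was 0.05, with 58.7% of pairs above 0 and 38 pairs over 0.5, and members paired with other genes of the same level range had a median of 0.00. Pairs within the large subunit (0.06), within the small subunit (0.03) and between them (0.05) were alike in size, and pairs with cytosolic ribosomal protein genes had a median of 0.06. With the mitochondrially encoded protein genes, the products of the ribosome, the median was 0.01. These values are descriptions over libraries that share depth and dissection, and a weak correlation is no finding. The genes most like the mean of the others were Mrpl11 (r = 0.67) and Mrpl12 (0.61), whose product also binds the mitochondrial RNA polymerase, and the least like it was Mrpl57 (-0.38). The highest single pair was Mrpl51 with Mrpl42 (0.75), followed by Mrpl19 with Mrpl42 (0.67) and Mrpl51 with Mrpl50 (0.66).

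No mitochondrial ribosomal protein gene changed with genotype at an adjusted p under 0.05 in edgeR's quasi-likelihood test, adjusted by the Benjamini-Hochberg method over 19547 genes. The medians of the 76 log2 fold changes lay between -0.01 and 0.02 in all 13 contrasts of genotype and their interactions. The plot of fold changes by comparison shows most genes inside 1.2-fold in either direction. The 95% interval of the fold change lay wholly inside that limit for 71 genes in Q140 against WT, 71 in Msh3-/- against WT and 75 in the averaged comparison of Q140 carriers with non-carriers, so that changes beyond 1.2-fold were outside the interval for nearly every gene.

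**Figure D3:**
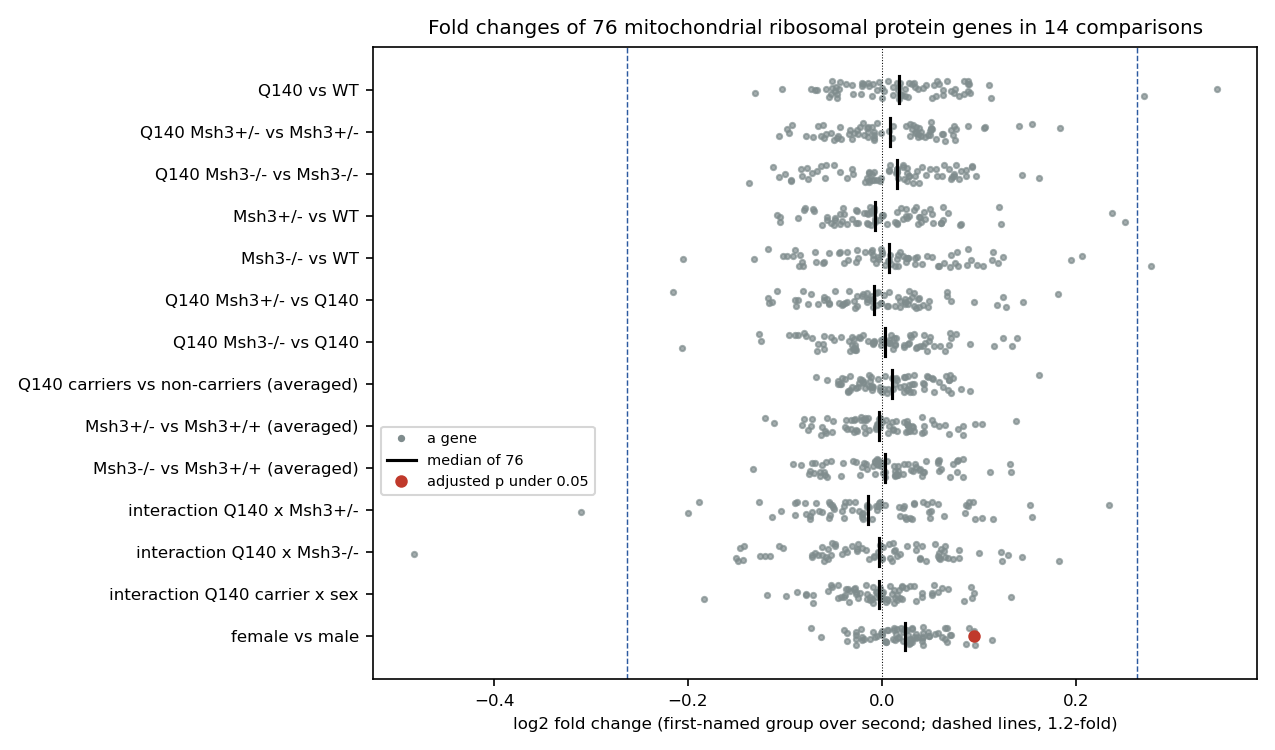
Log2 fold change of each of the 76 genes in 14 comparisons, the first-named group over the second (for interactions, the difference of 2 such changes). Grey points are genes, black bars their median and dashed lines 1.2-fold, and the single red point is Mrps35 in females against males (0.09).

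In Q140 against WT, 0 of 76 members and 0.102% of all genes tested were called, 2 members (2.63%, against 8.80% of all genes) had an unadjusted p under 0.05, and DESeq2 called 0 members. The median was 0.02 (0.00 over all genes) and 47 of 76 genes lay above 0. With plate column as a term the median was 0.00, and with 1 library left out it ranged from 0.005 to 0.0244. Mrpl23, the member with the smallest p, had between 2.13 and 3.58 CPM in Q140 (median 2.74), against 1.75 to 2.67 CPM in WT (median 2.17). Most Q140 libraries were above the WT median, with overlap at the lower end, and the log2 fold change was 0.35 ± 0.109 (SE, edgeR adjusted p = 0.297). Its pseudogene Mrpl23-ps1 differed by 0.07 ± 0.0565 in the same comparison. Mrps18a, 1 of 3 mammalian paralogs of the bacterial S18 protein, averaged 30.8 ± 0.97 CPM in Q140 and 29.0 ± 1.35 CPM in WT (SD, n = 8 each), a log2 difference of 0.09 ± 0.0431 (SE, edgeR adjusted p = 0.558). Mrpl53 differed by 0.27 ± 0.138 and Mrps15 by 0.09 ± 0.0449, with edgeR adjusted p of 0.575 and 0.596.

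On the other Msh3 backgrounds the outcome was similar in count. In Q140 Msh3+/- against Msh3+/-, 0 of 76 members and 0.0512% of all genes were called, and DESeq2 called 0 members. There 5 members (6.58%, against 7.77% of all genes) had an unadjusted p under 0.05. In Q140 Msh3-/- against Msh3-/-, 0 members and 0.0205% of all genes were called, and 0 members by DESeq2. Again 5 members (6.58%, against 6.77% of all genes) were under 0.05. Mrpl44, a large-subunit protein of the ribonuclease III family, had the smallest p in the comparison on the Msh3-/- background. It ranged from 13.2 to 16.2 CPM in Q140 Msh3-/- (median 14.8), against 12.7 to 13.8 CPM in Msh3-/- (median 13.3). Only the lowest double mutant library fell inside the Msh3-/- range, and the log2 fold change was 0.16 ± 0.0489 (SE, edgeR adjusted p = 0.555). Its change in Q140 against WT was -0.02 ± 0.0489.

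Averaged over Msh3 genotype, 24 Q140 carriers were compared with 24 non-carriers. 0 of 76 members were called against 1.47% of all genes, 6 members (7.89%, against 15.1% of all genes) had an unadjusted p under 0.05, all of them higher in carriers, and DESeq2 called 0. Astrocyte markers, 10 of 10 detected, moved with carrier status, with overlapping ranges: their summed level had medians of 7363, 7314 and 7105 CPM in Q140 Msh3-/-, Q140 Msh3+/- and Q140, against 8018, 8159 and 8182 CPM in Msh3-/-, Msh3+/- and WT, and their part in the carrier differences was not tested. The 4 members of smallest p were Mrpl44, Mrpl52, Mrpl55 and Mrpl12. These carry Mrpl symbols, as do 47 of the 76 members, and the median log2 difference was 0.00 over Mrpl symbols and 0.02 over Mrps symbols. Mrpl44 averaged 14.2 ± 1.07 CPM in carriers and 13.5 ± 0.840 CPM in non-carriers (SD, n = 24 each), a log2 difference of 0.07 ± 0.0284 (SE, edgeR adjusted p = 0.215). Mrpl52 averaged 9.13 ± 0.791 CPM in carriers and 8.60 ± 0.809 CPM in non-carriers (log2 difference 0.09), and Mrpl55 16.5 ± 0.892 CPM and 15.8 ± 1.01 CPM (0.06). Mrpl12 averaged 32.6 ± 2.71 CPM in carriers and 31.1 ± 1.80 CPM in non-carriers (0.07). For each of the 4 the carriers' and non-carriers' ranges overlapped over most of their length.

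Among the comparisons, Msh3-/- against WT had the most members with an unadjusted p under 0.05. There, 0 of 76 members and 0.113% of all genes were called and DESeq2 called 0 members, while 11 members (14.5%) had an unadjusted p under 0.05, against 10.8% of all genes. The 11 were split, 7 higher and 4 lower in Msh3-/-. Mrpl50, a large-subunit protein without a bacterial counterpart, ranged from 22.3 to 24.8 CPM in Msh3-/- (median 23.6), against 23.8 to 31.1 CPM in WT (median 26.7). Most WT libraries lay above the whole Msh3-/- range, and the log2 fold change was -0.21 ± 0.0539 (SE, edgeR adjusted p = 0.192). Mrpl34, counterpart of the bacterial L34 protein, ranged from 9.49 to 12.7 CPM in Msh3-/- (median 11.2), against 8.03 to 11.4 CPM in WT (median 9.31). The groups overlapped over much of their range, with a log2 fold change of 0.21 ± 0.0606 (SE, edgeR adjusted p = 0.262).

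A pair of small-subunit genes followed in the same comparison. Mrps2, counterpart of bacterial S2, averaged 27.0 ± 0.936 CPM in Msh3-/- and 29.3 ± 1.39 CPM in WT (SD, n = 8 each), a log2 difference of -0.12 ± 0.0397 (SE, edgeR adjusted p = 0.309). Mrps22, mutated in a mitochondrial disease of infants in people, averaged 12.0 ± 0.479 CPM in Msh3-/- and 13.2 ± 0.530 CPM in WT (SD, n = 8 each), a log2 difference of -0.13 ± 0.0453 (SE, edgeR adjusted p = 0.314). Mrps26 and Mrpl23, the next in order of p, were higher in Msh3-/- than in WT by 0.11 and 0.28.

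With the Q140 background included, 16 Msh3-/- libraries were set against 16 Msh3+/+ libraries. 0 of 76 members and 0.215% of all genes were called by edgeR, and 9 members (11.8%, against 14.9% of all genes) had an unadjusted p under 0.05. DESeq2 called 1 member, Mrpl50 (adjusted p = 0.0484). Mrpl50 averaged 24.4 ± 1.91 CPM in Msh3-/- and 26.7 ± 2.24 CPM in Msh3+/+ libraries (SD, n = 16 each), a log2 difference of -0.13 ± 0.0380 (SE, edgeR adjusted p = 0.108). With 1 library left out this difference ranged from -0.15 to -0.12 and its edgeR adjusted p from 0.0401 to 0.193, and it was called in 1 of 48 such fits, the one without Q140 Msh3-/- M2, the highest double mutant at 29.9 CPM. Mrpl34 averaged 10.8 ± 0.813 CPM in Msh3-/- and 9.87 ± 0.901 CPM in Msh3+/+ libraries (SD, n = 16 each), with a log2 difference of 0.13 ± 0.0428 (SE, edgeR adjusted p = 0.145). Mrps2 and Mrps26 differed by -0.08 and 0.08. Within Q140 mice, Mrpl50 differed by -0.06 ± 0.0537 and Mrpl34 by 0.06 ± 0.0604 in Q140 Msh3-/- against Q140.

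**Figure D4:**
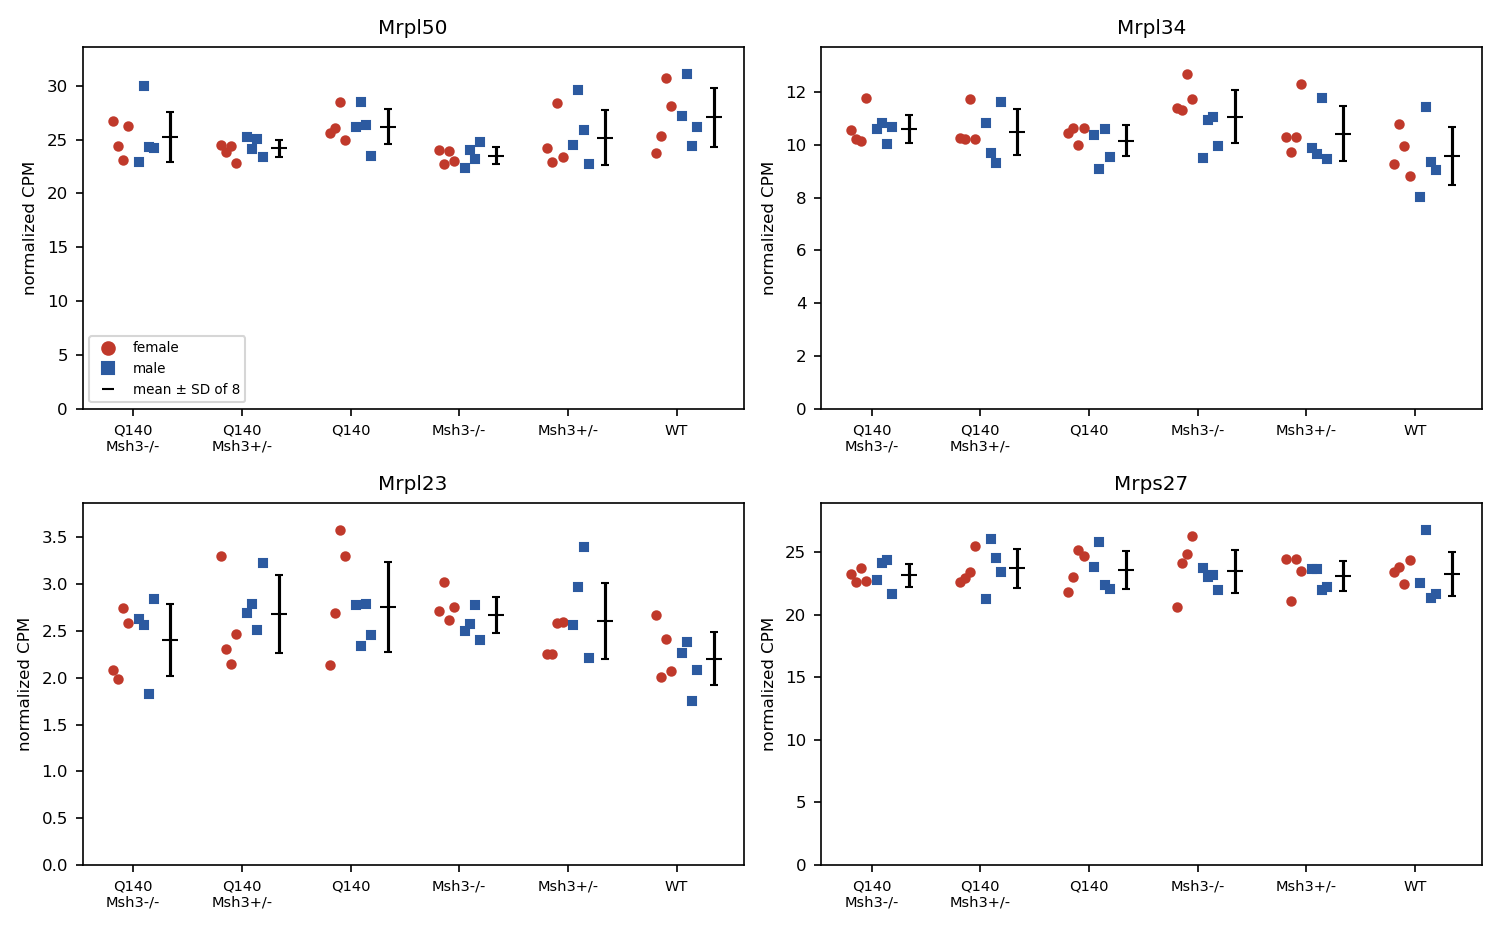
Normalized CPM of Mrpl50, Mrpl34, Mrpl23 and Mrps27 in every library, by genotype. Circles are females, squares males and bars the mean ± SD of 8 libraries, with Mrpl50 averaging 23.5 CPM in Msh3-/- and 27.1 CPM in WT and Mrps27 between 23.1 and 23.7 CPM in all 6 genotypes.

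The other comparisons of Msh3 genotype called no member. In Msh3+/- against WT, 0 of 76 members and 0.0307% of all genes were called, and 0 members by DESeq2. There 3 members (3.95%, against 4.96% of all genes) had an unadjusted p under 0.05. Averaged over Q140 status, Msh3+/- against Msh3+/+ had 0 members and 0.0512% of all genes called, and 0 members by DESeq2. In it 7 members (9.21%, against 8.14% of all genes) were under 0.05. Mrpl50 was again the member of smallest p there, with a log2 difference of -0.11 ± 0.0381 (SE, edgeR adjusted p = 0.536), and Mrps26 had 0.08. The averaged Msh3+/- and Msh3-/- comparisons share the Msh3+/+ libraries. In Q140 Msh3+/- against Q140, 0 members and 0.0307% of all genes were called, and 0 members by DESeq2. Here 8 members (10.5%, against 6.22% of all genes) were under 0.05, 2 higher and 6 lower. The largest difference among the members was that of Mrps36 (-0.22 ± 0.0835). In Q140 Msh3-/- against Q140, 0 members and 0.102% of all genes were called, and 0 members by DESeq2. Here 2 members (2.63%, against 6.86% of all genes) were under 0.05. They were led by Mrpl39, at 18.9 ± 0.596 CPM in Q140 Msh3-/- and 20.6 ± 1.05 CPM in Q140 (SD, n = 8 each).

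Whether the knock-in's effect depended on Msh3 was tested as an interaction. For Msh3-/-, 0 members and 0% of all genes were called, and 0 members by DESeq2. There 5 members (6.58%, against 3.20% of all genes) had an unadjusted p under 0.05. Mrpl23 had the smallest p, with an interaction of -0.48 ± 0.153 on the log2 scale (SE, edgeR adjusted p = 0.9999), the difference between -0.14 in Q140 Msh3-/- against Msh3-/- and 0.35 in Q140 against WT. Mrpl44 had 0.18 ± 0.0691. For Msh3+/-, 0 members and 0% of all genes were called, with 2 members (2.63%, against 3.30% of all genes) under 0.05 and 0 by DESeq2. The intervals of the interactions were wider: 60 of 76 lay within 1.2-fold for Msh3-/- and 65 for Msh3+/-.

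Genes on the chromosome of an altered locus can carry the donor strain's alleles with it. On chromosome 13, where Msh3 lies at 92211872-92355003 (GRCm38), Mrps27 is 6.99 Mb away, Mrps36 8.38 Mb and Mrpl36 18.9 Mb, and Mrps30 at 26.0 Mb and Mrpl32 at 77.6 Mb lie outside the 20 Mb used as limit. The nearest members to Htt on chromosome 5 are Mrpl1, Mrps18c and Mrps17, at 61.3 to 94.8 Mb. Mrps27, a pentatricopeptide repeat protein of the small subunit whose promoter is shown above, ranged from 20.6 to 26.3 CPM in Msh3-/- (median 23.5), against 21.3 to 26.8 CPM in WT (median 23.0). The groups overlapped almost wholly and the log2 difference was 0.01 ± 0.0465 (SE). Mrps36, whose protein is now placed in the 2-oxoglutarate dehydrogenase complex, averaged 4.26 ± 0.540 CPM in Msh3-/- and 4.45 ± 0.722 CPM in WT (SD, n = 8 each). Mrpl36, counterpart of the bacterial L36 protein, averaged 11.2 ± 1.67 CPM in Msh3-/- and 10.8 ± 0.781 CPM in WT (SD, n = 8 each). Neither difference exceeded the spread between libraries.

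Other members with a known special role were not called either. The 3 S18 paralogs kept their order in every genotype: Mrps18a averaged 30.5 CPM in Q140 Msh3-/- and 29.0 CPM in WT, Mrps18b 10.9 and 10.6 CPM, and Mrps18c 7.28 and 7.12 CPM. Mrps16, mutated in a fatal neonatal disorder in people, differed by -0.01 ± 0.0618 in Q140 against WT and by 0.00 ± 0.0618 in Msh3-/- against WT. Mrps34, needed for the stability of the small subunit, differed by 0.06 ± 0.0560 and 0.09 ± 0.0559 in the same comparisons, and Mrpl3, the highest member by CPM at 55.2, by -0.07 ± 0.0504 and -0.06 ± 0.0504. Mrpl45, at the tunnel exit where new proteins meet the inner membrane, differed by 0.01 ± 0.0423 in Q140 against WT and 0.09 ± 0.0421 in Msh3-/- against WT. Mrps30, whose protein sits in the large subunit despite its name, differed by 0.02 ± 0.0520 and -0.07 ± 0.0523. None of these passed the test.

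Sex gave the only member called in edgeR. In females against males, 24 libraries each, 1 of 76 members and 4.28% of all genes were called, 9 members (11.8%, against 17.4% of all genes) had an unadjusted p under 0.05, 8 of them higher in females, and DESeq2 also called 1. The called gene was Mrps35, a small-subunit protein without a bacterial counterpart. It ranged from 16.3 to 19.8 CPM in females (median 18.4), against 15.3 to 18.8 CPM in males (median 17.4). The ranges overlapped widely, but the female mean was the higher one in 6 of 6 genotypes. Females averaged 18.2 ± 1.095 CPM and males 17.1 ± 0.957 CPM (SD, n = 24 each), a rise of 0.09 ± 0.0256 on the log2 scale in females (SE, edgeR adjusted p = 0.0210). The call was lost without the low-count filter (adjusted p = 0.0610) and with plate column as a term (0.0502).

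**Figure D5:**
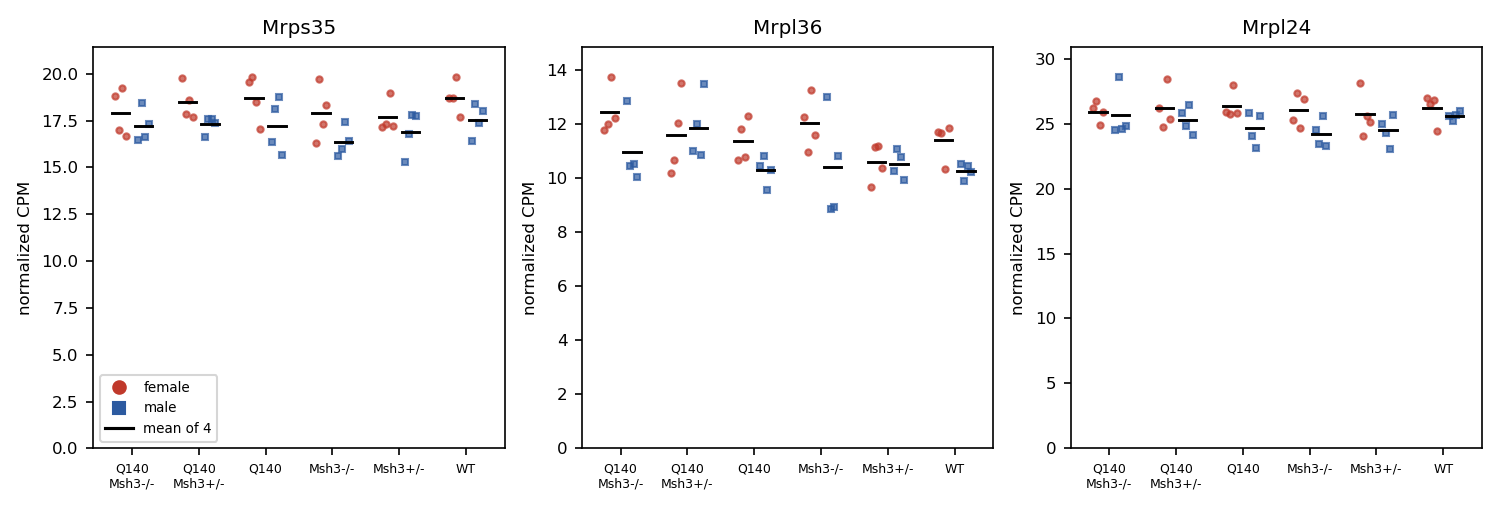
Normalized CPM of Mrps35, Mrpl36 and Mrpl24 in females (circles) and males (squares) of each genotype, with the mean of 4 as a black bar. The female mean of Mrps35 was above the male mean in 6 of 6 genotypes, that of Mrpl36 in 5 and that of Mrpl24 in 6.

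Mrpl36 and Mrpl24 came next. Mrpl36 averaged 11.6 ± 1.04 CPM in females and 10.7 ± 1.14 CPM in males (SD, n = 24 each), a log2 difference of 0.11 ± 0.0387 (SE, edgeR adjusted p = 0.0824), and Mrpl24 averaged 26.1 ± 1.19 CPM in females and 24.97 ± 1.23 CPM in males (SD, n = 24 each), a difference of 0.06 ± 0.0219 (SE, edgeR adjusted p = 0.0962). Over the 76 genes the median was 0.02 with 58 above 0 in females, where 49.8% of all genes tested lay above 0, and the medians of the large and small subunits were both 0.02. The summed level averaged 1531 ± 27.1 CPM in females and 1509 ± 19.1 CPM in males (SD, n = 24 each), with overlapping ranges. Oligodendrocyte markers also moved with sex, 8 of 8 detected, summing to 1595 to 2449 CPM in females (median 1941) and 1386 to 2048 CPM in males (median 1748), and their part in the result was not tested. In the interaction of carrier status with sex, 0 members and 0% of all genes were called, and 0 members by DESeq2. There 1 member (1.32%, against 2.58% of all genes) had an unadjusted p under 0.05.

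The rest of mitochondrial gene expression was followed through lists of genes chosen by function. Of 5 mitoribosomal proteins under other symbols (Dap3, Ptcd3, Chchd1, Aurkaip1 and Gadd45gip1), 0 were called in any comparison. Of 24 mitoribosome assembly factors tested in the 14 comparisons, 1 was called, in carriers against non-carriers, where 1.47% of all genes were called. Gtpbp10, a GTPase that matures the large subunit, fell to 5.81 ± 0.647 CPM in Q140 Msh3-/-, against 6.59 ± 0.805 CPM in Msh3-/-, to 5.78 ± 0.480 CPM in Q140 Msh3+/-, against 6.52 ± 0.803 CPM in Msh3+/-, and to 6.09 ± 0.462 CPM in Q140, against 6.92 ± 0.702 CPM in WT (SD, n = 8 each). Averaged, the log2 change was -0.18 ± 0.0434 (SE, edgeR adjusted p = 0.0174), and the call was lost with plate column as a term (0.0961) and without the 4 libraries whose choroid plexus or pituitary markers stood apart (0.0798). The astrocyte markers given above had lower medians in the same groups, and their part in this result was not tested. Distances to Htt and Msh3 were taken for the members only, so the part of a linked allele in the Gtpbp10 result was not tested.

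Further lists held 13 translation factors, 22 genes that charge mitochondrial tRNAs (aminoacyl-tRNA synthetases plus Qrsl1, Gatb and Gatc) and 12 genes of mitochondrial DNA maintenance and transcription. Among these and 9 transcription factors named for these promoters, 0 were called in any of the 14 comparisons. The 13 mitochondrially encoded protein genes lay below 0 in Q140 against WT (median -0.17) and in Msh3-/- against WT (median -0.19) with 0 called, and 6 of them were counted at under 3 CPM where mt-Co1 had 17798 CPM. These comparisons share the WT libraries, so they are not independent. In WT, mitochondrially encoded genes took 4.48% to 6.13% of counts, the highest minimum and the highest maximum among the genotypes. Among 77 cytosolic ribosomal protein genes, those called higher in carriers than in non-carriers included Rplp1, Rpl32 and Rpl13a, by 0.10 to 0.11. There 0 were called lower, and the median was 0.06 where the mitochondrial ribosomal protein genes had 0.01. In females against males, where 4.28% of all genes were called, 2 of these were, each lower in females, Rpl10 by 0.15 and Rpl22 by 0.07. Of the 77, 19 lay above 0, where 58 of the 76 mitochondrial ribosomal protein genes did.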

How the data were processed

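RNA was measured in 48 cortex libraries, prepared with a TruSeq stranded kit per the labels' protocols. The authors deposited whole-number counts per Ensembl gene and FPKM values; per the submitters' processing notes STAR 2.7.5c, SAMtools 1.10, HTSeq 0.12.3 and GRCm38/mm10 were named. The strand setting, the annotation release and the treatment of reads with several places are not given in the sources used here. FPKM served only to compare levels between genes.

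Groups came from the sample titles. Counts were fitted in R 4.3.3 with edgeR 4.0.16 (filterByExpr with a minimum count of 10 and a total of 15, TMM normalization, 6 genotypes plus sex, quasi-likelihood F-test, two-sided, Benjamini-Hochberg adjustment over 19547 genes, threshold 0.05) after a check on simulated counts. Libraries held 37.7 to 68.3 M counts, and p-values weigh a difference against the spread between these samples. Alternatives used DESeq2 1.42.0 and limma 3.58.1. Log2 CPM used a prior count of 2.

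Named genes were every member called, the 4 of smallest p in each of 4 comparisons, the 5 highest and 5 lowest by FPKM, members within 20 Mb of Msh3 or Htt and members with a known special role; a few others (next in p, covariation, paired genes, sequences shown) were chosen after their values were seen. Mrpl58 was not analysed under that symbol. The members and lists were chosen with earlier results of these data known. Copies were sought with blastn among GENCODE M21 transcripts. 14658 genes of the table had no count in any library.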

Additional observations from a re-analysis of the deposited data

Results flagged for a closer look

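In 186 groups of 8 libraries, formed by 31 named genes and 6 genotypes, 5 held 1 library set apart from the other 7 by a gap over the limit used for outliers, where chance gives about 1 group in 20. Mrpl34 was 11.8 CPM in Q140 Msh3-/- F4, with the next library at 10.8 CPM and the lowest at 10.04 CPM. Mrps22 was 14.4 CPM in Q140 Msh3-/- F1, above a next value of 12.9 CPM. Among WT libraries, Mrpl12 was 33.8 CPM in F4 (next 31.9 CPM), Mrps2 was 32.4 CPM in F3 (next 29.4 CPM) and Mrpl44 was 12.7 CPM in F2, below a next value of 13.8 CPM. The 5 values came from 5 different libraries, none of them among those high in choroid plexus or pituitary markers.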

How the results depend on the processing

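The count of members called stayed at 0 in 12 of the 13 genotype contrasts and interactions under the alternatives run for each (11 for most, 10 for carriers and 9 for the interaction with sex, where some did not apply), drawn from: other size factors, other filters on low counts, no sex term, a replicate block, plate column, the name prefix as a random block, DESeq2, only the groups compared, the 4 libraries high in other tissues left out, members with 5 CPM or more, and each of 48 libraries left out in turn. In Msh3-/- against Msh3+/+ averaged, 1 member (Mrpl50) was called under the replicate block (adjusted p = 0.0483) and under DESeq2 (0.0484), and 0 to 1 with a library left out. In females against males, 0 were called without the low-count filter and with plate column, and 1 to 2 with a library left out: Mrpl36 joined Mrps35 without Q140 Msh3+/- F1, without Q140 Msh3+/- M4 or without Msh3-/- M1, and Mrpl24 joined it without Q140 Msh3-/- M2. The cause was not tested. Same-numbered libraries did not clearly deviate together (median r 0.01 over 120 pairs, 10 of them over 0.1). Pairs with other numbers had a median r of 0.0002 over 360 pairs, 20 of them over 0.1. The replicate block thus shares only a number, and it changed no other count of members. With the name prefix as a random block, the correlation fitted within a prefix was 0.10. Of the 18 fold changes of single genes recomputed, 0 reversed their sign under these alternatives; the other fold changes named were not recomputed. The members' median was less steady than the calls: in Q140 against WT it was 0.02, -0.0001 with plate column and 0.005 to 0.0244 with a library left out. Mrps35 was called in all 48 fits with a library left out (adjusted p 0.0130 to 0.0422). The median of all genes moved by at most 0.0025 (log2) under other scalings. The level order kept 5 of its 5 highest genes with normalized counts per kilobase and 3 with principal transcript length, an alternative chosen after seeing the data. Over all genes, counts called ranged over the alternatives from 8 to 32 in Q140 against WT (20 as reported), 7 to 19 in Q140 Msh3+/- against Msh3+/- (10), 2 to 4 in Q140 Msh3-/- against Msh3-/- (4), 2 to 6 in Msh3+/- against WT (6), 13 to 23 in Msh3-/- against WT (22), 12 to 25 in Q140 Msh3-/- against Q140 (20), 102 to 478 for carriers (288) and 32 to 200 for Msh3-/- averaged (42). Depth limits Mrpl53 and Mrpl23 most, whose lowest libraries held 40 and 83 counts.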
